A study of Rattus norvegicus with 12 samples.

Results

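Oligodendrocyte lineage and myelin genes were followed in the striatum of rats that had self-administered methamphetamine (MA). The genes were the rows of the count table whose symbol stood in a list of 47 oligodendrocyte and myelin genes. Of these, 44 were found among the 17337 rows, and Gjc3, Lhfpl3 and Anln were not analysed here. The 44 members comprised 17 myelin membrane and myelin-associated proteins, 7 transcription factors of the lineage, 9 genes of lipid synthesis, metabolism and transport, 6 genes of progenitors and newly formed oligodendrocytes, and 5 cytoskeletal, signalling or protease genes. Each library was the whole striatum of a single wild-type male Sprague–Dawley rat, sequenced as poly-A RNA, so that all values are sums over the cell types of the tissue. All 12 rats had taken MA for 16 days, and there were 3 groups of 4 rats: MA12, killed 12 h after the last session (rats 21, 31, 4N and 7N), MA24, killed 24 h after it (rats 9N, 14N, 15N and 16N), and rats that the labels call non-addicted (rats 9, 11, 12 and 13). The criterion for non-addicted and the time at which those rats were killed are not given in the sources used here, and no drug-naive or saline rats were analysed here. All MA24 rats and 2 of the 4 MA12 rats have a number ending in N, no non-addicted rat has one, and the letter is not explained in the sources used here, so that in non-addicted vs. MA24 the group and the kind of rat number cannot be told apart.

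Oligodendrocytes wrap axons of the central nervous system in myelin, a lipid-rich sheath held together by proteins such as myelin basic protein (Mbp). They arise from progenitors that carry Pdgfra and Cspg4 (NG2), pass through a brief newly formed stage marked by Gpr17, Bcas1 and Enpp6, and mature under Sox10, Olig1, Olig2, Nkx2-2 and Myrf. In the striatum, mature oligodendrocytes lie in the fibre bundles that cross it and between the projection neurons, and progenitors are spread throughout. Galactolipids made by Ugt8, Fa2h and Gal3st1 are typical of the sheath.

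Promoter sequences from RefSeq (build GRCr8) were matched to 33 of the 44 members, and 3 motifs of the lineage's regulators were searched on both strands in the 250 bases before each gene's start: ACAAAG, a core bound by SOX proteins, CAGCTG, an E-box bound by basic helix-loop-helix proteins such as OLIG2, and CTGGCAC, a motif of MYRF. CAGCTG reads the same on both strands, and its last letters can overlap the first letters of CTGGCAC. The SOX core was found in 9 of the 33 member windows, against 16.0% of all 27457 promoter windows of that length, CAGCTG in 7 of 33 against 11.9%, and CTGGCAC in 6 of 33 against 3.69%. The windows of Adamts4, Klk6, Hapln2 and Cnp are shown because none of the 4 genes overlapped between non-addicted and MA24 rats, with Adamts4 and Klk6 past the threshold and Hapln2 and Cnp carrying all 3 motifs. They are written in the direction of the gene, with the motifs in capitals.
Adamts4, chr13:86202761-86203010, plus strand: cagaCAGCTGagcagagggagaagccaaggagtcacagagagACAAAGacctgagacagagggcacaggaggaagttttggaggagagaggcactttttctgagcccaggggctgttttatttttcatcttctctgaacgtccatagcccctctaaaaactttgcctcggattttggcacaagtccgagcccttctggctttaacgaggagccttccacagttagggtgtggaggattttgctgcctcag
Klk6, chr1:103415266-103415515, plus strand: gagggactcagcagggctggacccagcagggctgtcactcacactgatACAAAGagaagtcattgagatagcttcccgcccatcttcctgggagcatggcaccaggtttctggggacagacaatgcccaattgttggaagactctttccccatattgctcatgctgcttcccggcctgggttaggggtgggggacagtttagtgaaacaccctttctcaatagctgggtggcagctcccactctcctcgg
Hapln2, chr2:175794439-175794688, minus strand: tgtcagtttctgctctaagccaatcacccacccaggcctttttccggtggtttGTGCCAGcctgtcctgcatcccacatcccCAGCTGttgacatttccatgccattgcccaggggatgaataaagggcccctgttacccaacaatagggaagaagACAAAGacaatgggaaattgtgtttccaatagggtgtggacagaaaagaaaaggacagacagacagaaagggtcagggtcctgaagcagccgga
Cnp, chr10:86011254-86011503, plus strand: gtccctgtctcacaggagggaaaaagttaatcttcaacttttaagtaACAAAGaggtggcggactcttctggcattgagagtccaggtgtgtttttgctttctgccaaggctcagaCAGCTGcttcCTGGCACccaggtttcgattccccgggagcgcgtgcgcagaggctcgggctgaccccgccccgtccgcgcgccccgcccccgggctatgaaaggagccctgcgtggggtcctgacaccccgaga
In the Cnp window, ACAAAG began 203 bases, CAGCTG 134 bases and CTGGCAC 124 bases before the start. In that of Hapln2, the MYRF motif lay on the opposite strand (GTGCCAG, 197 bases before the start), with CAGCTG at 168 and ACAAAG at 94 bases. Adamts4 carried CAGCTG at 246 and ACAAAG at 208 bases, and Klk6 carried ACAAAG at 202 bases. A match describes the letters of the window and says nothing about binding in these rats.

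Total counts ranged from 17908962 to 23850284 per library, and all 44 members passed the filter on low counts in every comparison. Levels are given in CPM, read counts scaled to a common library size with TMM factors over the 12 libraries. They can be compared between rats for the same gene but not between genes, because no gene length was used. The labelled tissue was checked by 10 markers of striatal projection neurons such as Ppp1r1b and Drd1, all of which were detected, with summed levels of 14147 to 18644 CPM per rat. Non-addicted rat 9 stood apart by 329 counts of Ttr, the transthyretin of choroid plexus, where the other 11 libraries had 0 to 17. In what follows, the log2 fold change (log2FC) is the first group minus the second. SE is its approximate standard error, the size of the log2FC divided by the square root of the F statistic of edgeR's quasi-likelihood F-test. Genes passed the test where this F-test gave a Benjamini-Hochberg adjusted p under 0.05, corrected across every gene tested. A gene that also had a fold change of at least 1.5 is termed a DEG. The exact permutation test was two-sided over the 70 splits of 4 rats against 4, with a smallest possible p of 0.0286. The 3 comparisons share rats with each other, and p-values set the difference between groups against the spread among rats within them. They do not cover what differs along with the group, such as the kind of rat number in non-addicted vs. MA24. The rats were kept on a 12-h light-dark cycle, and the clock times of killing are not given in the sources used here. In MA24 vs. MA12, the length of abstinence and the time of day therefore cannot be told apart.

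The members moved together from rat to rat, within groups as well as between them. Relative to each gene's mean over the 12 rats, the median member was at -0.18, -0.18, -0.39 and -0.01 log2 CPM in non-addicted rats 9, 11, 12 and 13, at 0.11, -0.21, 0.35 and -0.04 in MA12 rats 21, 31, 4N and 7N, and at 0.32, 0.03, 0.13 and 0.07 in MA24 rats 9N, 14N, 15N and 16N. All 4 MA24 rats thus lay above 0 and all 4 non-addicted rats below it, while the MA12 rats spanned both. Non-addicted rat 12 had the lowest level of all 12 rats for 25 of the 44 members, and MA12 rat 4N the highest for 19. Within MA12, rat 4N was the highest of the 4 for 34 members, compared with 25.8% of 12649 genes, and rat 31 the lowest for 30, compared with 21.7% of genes. Non-addicted rat 13 was the highest of its group for 30 members (24.2% of genes) and rat 12 the lowest for 32 (21.3% of genes). MA24 rat 9N was the highest of its group for 29 members (24.3% of genes). The median SD of a member within a group was 0.26 log2 CPM in MA12, 0.19 in non-addicted and 0.18 in MA24 rats, where the median gene had 0.159, 0.163 and 0.172.

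**Figure D1:**
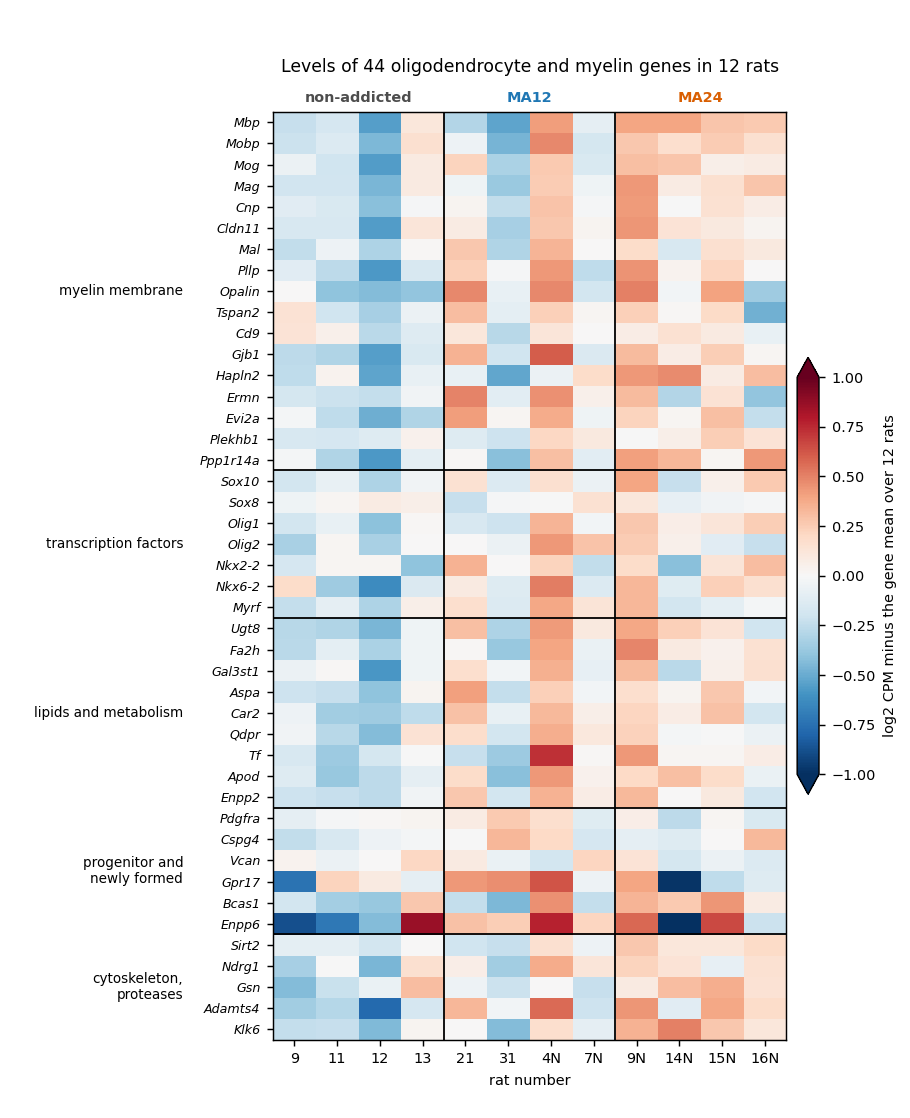
Level of each of the 44 members (rows, grouped by role) in each of the 12 rats (columns, grouped by condition), as log2 CPM minus the gene's mean over the 12 rats. Colours are limited to -1 and 1; rows of the myelin, lipid and protease groups are mostly blue in the non-addicted rats, above all rat 12, and mostly red in MA12 rat 4N and MA24 rat 9N.

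The 6 progenitor and newly formed members followed a partly different order, with MA12 rat 4N highest here as over the other 38 members (0.35). Their median was lowest in MA24 rat 14N (-0.22) and non-addicted rat 9 (-0.21) and highest in MA12 rats 4N (0.33) and 31 (0.25). Rat 31, whose median over the other 38 members was -0.21, was above the gene mean for 4 of these 6, but had the lowest Bcas1 level of the 12 rats (251 CPM).

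**Figure D2:**
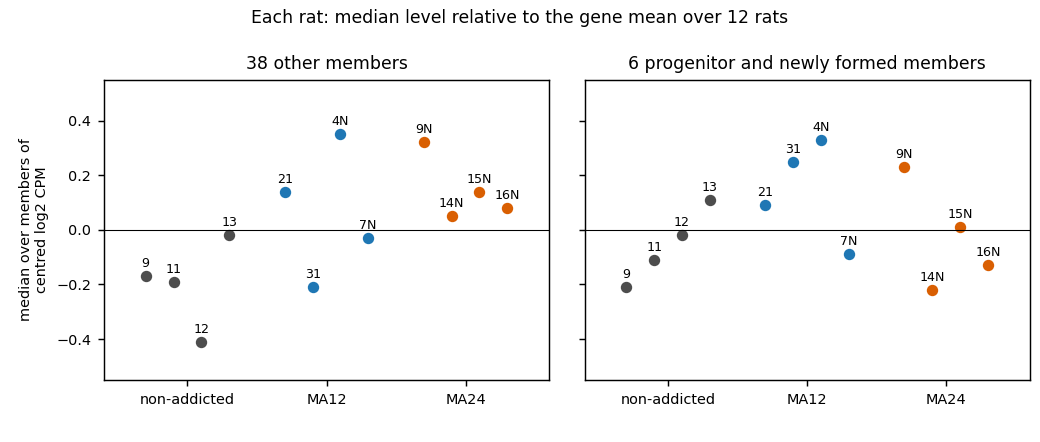
Median over members of log2 CPM relative to the gene's mean over 12 rats, for each rat (points with rat numbers) in the 3 groups, for the 38 members outside the progenitor and newly formed group (left) and for the 6 within it (right). On the left, non-addicted rats lie between -0.41 and -0.02 and MA24 rats between 0.05 and 0.32; on the right the groups overlap.

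In non-addicted vs. MA24, most members had a lower level in the non-addicted rats, and 3 of them passed the test. Of the 44 members, 43 were tested, since Sox8 was removed by the filter on low variance. The log2FC was below 0 for 40 of the 43, compared with 49.7% of the 10744 genes tested, and the median was -0.32 over the members and 0.00 over all genes. Mbp, Klk6 and Adamts4 passed the test and were lower in non-addicted rats, where 0.168% of all genes passed as lower and 0.549% in either direction. Adamts4 alone was a DEG, where 0.130% of all genes were DEGs in that direction. At an unadjusted p below 0.05, 29 members were lower and 0 higher, while 8.16% of all genes were lower. The groups did not overlap for 13 members, all lower in the non-addicted rats (Mbp, Cnp, Pllp, Gjb1, Hapln2, Ppp1r14a, Olig1, Fa2h, Tf, Apod, Sirt2, Adamts4 and Klk6), compared with 4.90% of all genes. Whether there were fewer oligodendrocytes or less of these transcripts per cell cannot be told apart in whole tissue. The calls were narrow, and the number of genes called in the whole table moved with the setting as well. Without the variance filter, 0 members passed, and 0 of all 12640 genes did, so this setting singled out no member. Without non-addicted rat 12, 0 members and 0 of 10716 genes passed. With all 3 groups in the fit, 0 members and 4 of 10751 genes passed. There were also 0 members without non-addicted rat 11 (3 of 10729 genes) and without MA24 rat 9N (33 of 10721 genes), 15N (1 of 10746 genes) or 16N (6 of 10746 genes). In the other direction, 15 members passed without non-addicted rat 13 (266 of 10751 genes), 11 with DESeq2 (253 of 10744 genes) and 10 with edgeR's likelihood ratio test (271 of 10744 genes). The median member stayed between -0.40 and -0.26 with each rat left out in turn.

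In non-addicted vs. MA12, the members leaned the same way with more spread, and none passed the test. The log2FC was below 0 for 41 of 44 members, compared with 52.3% of the 10758 genes tested, with a median of -0.23 over the members and -0.01 over all genes. At an unadjusted p below 0.05, 14 members were lower and 0 higher, against 7.03% of all genes lower. There were 0 members past the test by edgeR's quasi-likelihood test, where 0.270% of all genes passed and 0.251% were DEGs, 3 by edgeR's likelihood ratio test (Evi2a, Car2 and Adamts4; 164 of the 10758 genes passed) and 4 by DESeq2 (the same 3 and Opalin; 173 of the 10758 genes). No member had groups that did not overlap, compared with 7.11% of all genes. The smallest adjusted p-values were those of Evi2a (log2FC -0.47, SE 0.12, adjusted p = 0.118) and Adamts4 (-0.58, SE 0.15, adjusted p = 0.118, both edgeR). With only the rats numbered without N, 4 non-addicted and 2 MA12, the median was -0.13 and 13 of 42 members were above 0, Mbp, Olig1, Tf and Bcas1 among them. With a covariate for the kind of rat number, the median was -0.14 and 13 of 44 members were above 0.

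In MA24 vs. MA12, the members as a group were level. The log2FC was above 0 for 25 and below 0 for 19 of the 44 members, compared with 48.3% of the 10754 genes above 0, with a median of 0.04 over the members and -0.02 over all genes. Gsn passed the test and was higher in MA24, where 1.84% of all genes passed as higher and 5.16% in either direction, and 0 members were DEGs, compared with 2.45% of all genes. At an unadjusted p below 0.05, 8 members were higher (10.5% of all genes) and 1 was lower (13.1% of all genes). Gsn was also the only member whose groups did not overlap, compared with 15.5% of all genes. MA12 rat 4N weighed on this comparison: without it 6 members (Mbp, Mobp, Ppp1r14a, Bcas1, Gsn and Klk6) and 414 of 10772 genes passed, and the median was 0.15. With only the rats numbered with N, 0 of the 41 members tested and 131 of 10699 genes passed by the same edgeR test. At an unadjusted p below 0.05, 2 members were higher and 2 lower there, and the median member was at 0.00.

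**Figure D3:**
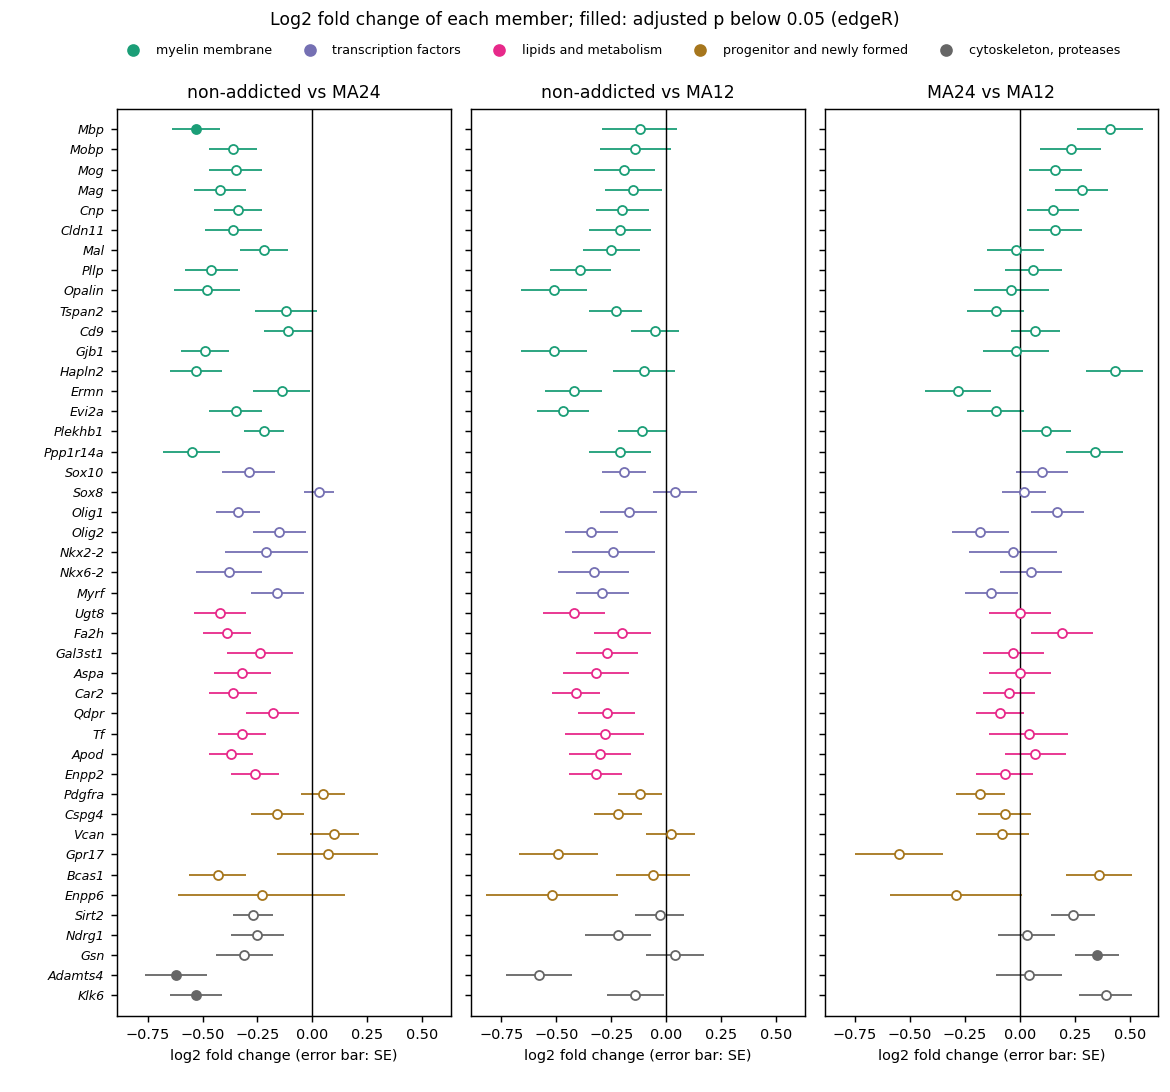
Log2 fold change of each member (points, first group minus second) with its SE (bars) in the 3 comparisons, coloured by role; filled points have an adjusted p below 0.05 in edgeR's quasi-likelihood test. In non-addicted vs. MA24, 40 of the 43 tested members lie left of 0; Sox8, removed by the variance filter there, is drawn from the fit without that filter.

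Among the 17 myelin membrane and myelin-associated members, every log2FC was below 0 in non-addicted vs. MA24 (median -0.36, range -0.55 to -0.11) and in non-addicted vs. MA12 (median -0.21, range -0.51 to -0.05), and 11 were above 0 in MA24 vs. MA12 (median 0.12, range -0.28 to 0.43). Values per rat are given below in the order of rats 9, 11, 12 and 13 for non-addicted, 21, 31, 4N and 7N for MA12, and 9N, 14N, 15N and 16N for MA24. Mbp, a protein that compacts the sheath, had 8170, 8523, 6566 and 10404 CPM in non-addicted rats, 7885, 6674, 12854 and 9041 CPM in MA12 rats, and 12590, 12606, 11662 and 11524 CPM in MA24 rats. The MA24 rats were close to each other and above every non-addicted rat, and the MA12 rats reached from the bottom of the non-addicted range to above the MA24 range. The means were 8416 ± 1575, 9113 ± 2674 and 12096 ± 583 CPM (SD, n = 4 each). Non-addicted vs. MA24 gave -0.53 on the log2 scale (SE 0.11, adjusted p = 0.0443, edgeR; exact permutation p = 0.0286), MA24 vs. MA12 gave 0.41 (SE 0.15, adjusted p = 0.104), and non-addicted vs. MA12 gave -0.12 (SE 0.17; exact permutation p = 0.714). The direction of Mbp in non-addicted vs. MA12 turned with only the rats numbered without N (0.22), with the covariate (0.21) and without MA12 rat 4N (0.10). Over the alternatives for non-addicted vs. MA24 that left out a rat, the log2FC of Mbp lay between -0.65 and -0.43 and its adjusted p between 0.000908 and 0.122.

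Cnp, a cyclic nucleotide phosphodiesterase of non-compact myelin, had 881, 853, 714 and 945 CPM in non-addicted rats, 970, 806, 1159 and 942 CPM in MA12 rats, and 1277, 952, 1060 and 999 CPM in MA24 rats. The highest non-addicted rat, 13, lay just below the lowest MA24 rat, 14N, so that the groups did not overlap by a narrow margin. The log2FC was -0.34 (SE 0.11, adjusted p = 0.139 by edgeR) in non-addicted vs. MA24, -0.20 (SE 0.12) in non-addicted vs. MA12 and 0.15 (SE 0.12) in MA24 vs. MA12. Hapln2, a link protein of the extracellular matrix at the nodes of Ranvier, was just outside the threshold. It had 123, 150, 102 and 139 CPM in non-addicted rats, 139, 102, 141 and 167 CPM in MA12 rats, and 198, 203, 156 and 183 CPM in MA24 rats. Its MA24 rats were above all non-addicted rats and above 3 of the 4 MA12 rats. Non-addicted vs. MA24 gave -0.53 (SE 0.12, adjusted p = 0.0512) and MA24 vs. MA12 gave 0.43 (SE 0.13, adjusted p = 0.0573), both by edgeR. Ppp1r14a, an inhibitor of protein phosphatase, and Gjb1, a connexin of gap junctions, were close to the threshold as well in non-addicted vs. MA24, with log2FC values of -0.55 (SE 0.13, adjusted p = 0.0524) and -0.49 (SE 0.11, adjusted p = 0.058). Between MA24 and MA12 these genes parted, at 0.34 (SE 0.13) for Ppp1r14a and -0.02 (SE 0.15) for Gjb1. Pllp, a proteolipid of the sheath, was the other member of this group without overlap in non-addicted vs. MA24 (-0.46, SE 0.12, adjusted p = 0.0842, edgeR).

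The other 11 genes of this group were less separated. Mobp, Mog, Mag and Cldn11, genes of compact myelin, its outer and inner surfaces and its tight junctions, had log2FC values of -0.36, -0.35, -0.42 and -0.36 in non-addicted vs. MA24 (SE 0.11 to 0.13). Opalin, a glycoprotein of the oligodendrocyte membrane, had 155, 117, 115 and 118 CPM in non-addicted rats, 217, 147, 217 and 136 CPM in MA12 rats, and 220, 152, 205 and 121 CPM in MA24 rats, with wide and overlapping groups. Its log2FC was -0.51 (SE 0.15, adjusted p = 0.146) in non-addicted vs. MA12 and -0.48 (SE 0.15, adjusted p = 0.139) in non-addicted vs. MA24, both by edgeR. Ermn, an actin-binding protein of mature oligodendrocytes, leaned further in non-addicted vs. MA12 (-0.42, SE 0.13) than in non-addicted vs. MA24 (-0.14, SE 0.13), and was at -0.28 (SE 0.15, adjusted p = 0.285, edgeR) in MA24 vs. MA12. Evi2a had log2FC values of -0.35 (SE 0.12) against MA24 and -0.47 (SE 0.12) against MA12. Mal, Plekhb1, Tspan2 and Cd9 were the least different in non-addicted vs. MA24 beside Ermn, at -0.22, -0.22, -0.12 and -0.11 (SE 0.09 to 0.14).

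The 5 cytoskeletal, signalling and protease genes held the other calls. Adamts4, a secreted metalloprotease that cleaves proteoglycans and is made by oligodendrocytes in the adult brain, had 40.0, 41.6, 29.5 and 45.3 CPM in non-addicted rats, 63.9, 49.9, 74.8 and 44.0 CPM in MA12 rats, and 68.8, 46.8, 66.2 and 57.8 CPM in MA24 rats. All MA24 rats were above the non-addicted rats, and MA12 rat 7N fell within the non-addicted range. The means were 39.1 ± 6.77, 58.2 ± 13.9 and 59.9 ± 9.93 CPM (SD, n = 4 each). Non-addicted vs. MA24 gave -0.62 (SE 0.14, adjusted p = 0.0497, edgeR; exact permutation p = 0.0286), a level 1.54-fold higher in MA24. The log2FC was -0.58 (SE 0.15, adjusted p = 0.118) in non-addicted vs. MA12 and 0.04 (SE 0.15, adjusted p = 0.894) in MA24 vs. MA12.

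Klk6, a secreted serine protease that can cleave myelin basic protein, had 48.2, 48.4, 41.9 and 58.1 CPM in non-addicted rats, 56.9, 42.0, 63.9 and 53.2 CPM in MA12 rats, and 72.3, 80.2, 68.4 and 61.1 CPM in MA24 rats. Its non-addicted and MA24 rats did not overlap, and only MA12 rat 4N reached into the MA24 range. The log2FC was -0.53 (SE 0.12, adjusted p = 0.049, edgeR; exact permutation p = 0.0286) in non-addicted vs. MA24, 0.39 (SE 0.12, adjusted p = 0.0722) in MA24 vs. MA12 and -0.14 (SE 0.13, adjusted p = 0.707) in non-addicted vs. MA12. Gsn, the actin-severing protein gelsolin, had 212, 246, 274 and 355 CPM in non-addicted rats, 276, 247, 287 and 244 CPM in MA12 rats, and 304, 354, 369 and 316 CPM in MA24 rats. Every MA24 rat was above every MA12 rat, and the non-addicted rats overlapped with both. MA24 vs. MA12 gave 0.35 (SE 0.10, adjusted p = 0.0467, edgeR; exact permutation p = 0.0286), non-addicted vs. MA24 gave -0.31 (SE 0.13, adjusted p = 0.229) and non-addicted vs. MA12 gave 0.04 (SE 0.13, adjusted p = 0.936). The call of Gsn was lost with all 3 groups in the fit (adjusted p = 0.0903), with only the rats numbered with N (0.186), with the kind of number as a covariate (0.187, all edgeR), and without any of MA12 rats 21, 31 and 7N or MA24 rats 14N, 15N and 16N, while its log2FC stayed between 0.30 and 0.39 with a rat left out. Gsn is made by several cell types and is no specific marker of oligodendrocytes.

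Sirt2, a deacetylase of tubulin in the myelin sheath, had 295, 294, 276 and 315 CPM in non-addicted rats, 275, 268, 353 and 305 CPM in MA12 rats, and 380, 339, 339 and 360 CPM in MA24 rats. The MA24 rats were above all non-addicted rats, and MA12 rat 4N lay within the MA24 range. The log2FC was -0.27 (SE 0.09, adjusted p = 0.153, edgeR) in non-addicted vs. MA24, 0.24 (SE 0.10) in MA24 vs. MA12 and -0.03 (SE 0.11) in non-addicted vs. MA12. Ndrg1, a stress-responsive protein of mature oligodendrocytes, had log2FC values of -0.25 (SE 0.12), 0.03 (SE 0.13) and -0.22 (SE 0.15) in the same order.

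**Figure D4:**
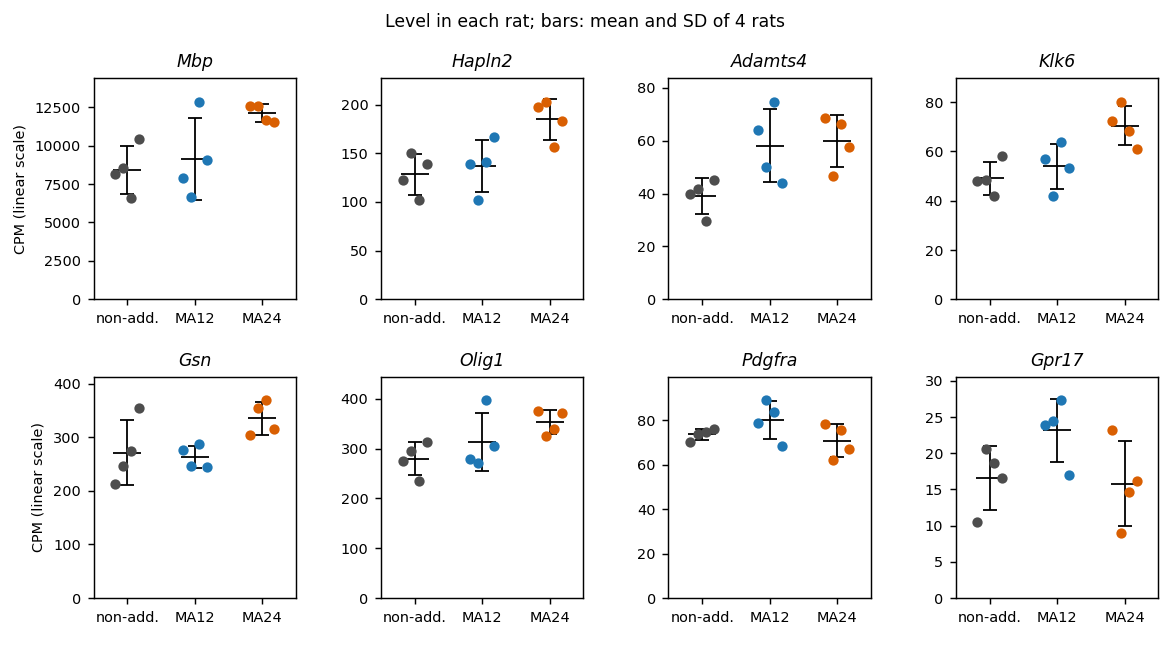
CPM on linear axes starting at 0 for 8 members in each rat (points) of the 3 groups, with the mean and SD of 4 rats (bars). Mbp, Hapln2, Adamts4 and Klk6 are higher in every MA24 rat than in every non-addicted rat, Gsn is higher in every MA24 than in every MA12 rat, Olig1 is separated between non-addicted and MA24 rats, and Pdgfra and Gpr17 overlap.

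Among the 7 transcription factors, 0 passed edgeR's quasi-likelihood test with all rats in any comparison, and 0 passed by DESeq2. At an unadjusted p below 0.05 by edgeR, 3 were lower in non-addicted vs. MA24 (8.16% of all genes) and 2 in non-addicted vs. MA12 (7.03% of all genes). In non-addicted vs. MA24, Nkx6-2 passed without non-addicted rat 9 (113 of 10743 genes passed) and Olig1 without non-addicted rat 13 (266 of 10751 genes passed). Of the 6 tested in non-addicted vs. MA24, all had a log2FC below 0 (median -0.25, range -0.38 to -0.15), and 6 of 7 did in non-addicted vs. MA12 (median -0.24). Olig1, which promotes the maturation of oligodendrocytes, had 275, 295, 236 and 314 CPM in non-addicted rats, 280, 271, 397 and 306 CPM in MA12 rats, and 376, 326, 340 and 371 CPM in MA24 rats. It was the only transcription factor whose non-addicted and MA24 rats did not overlap (-0.34, SE 0.10, adjusted p = 0.125, edgeR). Myrf, the membrane-bound activator of myelin genes, had 139, 154, 132 and 172 CPM in non-addicted rats, 184, 149, 216 and 179 CPM in MA12 rats, and 206, 145, 153 and 162 CPM in MA24 rats. These groups overlapped in all 3 comparisons, with log2FC values of -0.16 (SE 0.12) in non-addicted vs. MA24, -0.29 (SE 0.12) in non-addicted vs. MA12 and -0.13 (SE 0.12) in MA24 vs. MA12. Sox10 and Nkx6-2 were at -0.29 (SE 0.12) and -0.38 (SE 0.15) in non-addicted vs. MA24, and Olig2 and Nkx2-2 at -0.15 (SE 0.12) and -0.21 (SE 0.19). Sox8, which acts beside Sox10, spanned 81.0 to 106 CPM over the 12 rats. Its log2FC was 0.04 (SE 0.10) in non-addicted vs. MA12 and 0.02 (SE 0.10) in MA24 vs. MA12. In non-addicted vs. MA24 it was 0.03 (SE 0.07) in the fit without the variance filter.

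The 9 genes of lipid synthesis, metabolism and transport all had a log2FC below 0 in non-addicted vs. MA24 (median -0.32, range -0.42 to -0.18) and in non-addicted vs. MA12 (median -0.30, range -0.42 to -0.20), and a median of 0.00 in MA24 vs. MA12. The galactolipid enzymes Ugt8, Fa2h and Gal3st1 had -0.42, -0.39 and -0.24 in non-addicted vs. MA24 (SE 0.11 to 0.15), and Fa2h did not overlap there. Tf, the iron carrier transferrin, had 826, 716, 816 and 917 CPM in non-addicted rats, 786, 716, 1528 and 928 CPM in MA12 rats, and 1243, 934, 935 and 970 CPM in MA24 rats. All MA24 rats were above all non-addicted rats, and MA12 rat 4N was far above the other 3 MA12 rats. The log2FC of Tf was -0.32 (SE 0.11, adjusted p = 0.16) in non-addicted vs. MA24, -0.28 (SE 0.18, adjusted p = 0.56) in non-addicted vs. MA12 and 0.04 (SE 0.18, adjusted p = 0.905) in MA24 vs. MA12, all by edgeR. Without rat 4N, Tf was at 0.02 in non-addicted vs. MA12 and 0.33 in MA24 vs. MA12. Apod, a lipid-binding apolipoprotein, was the third gene of this group without overlap (-0.37, SE 0.10, adjusted p = 0.1, edgeR). Qdpr, a reductase that regenerates tetrahydrobiopterin, had 476, 405, 363 and 542 CPM in non-addicted rats, 552, 430, 632 and 528 CPM in MA12 rats, and 575, 484, 487 and 470 CPM in MA24 rats. Its groups overlapped in every comparison, with -0.18 (SE 0.12) in non-addicted vs. MA24. Car2, a carbonic anhydrase, Aspa, which splits acetylaspartate, and Enpp2, the lysophospholipase autotaxin, had -0.36, -0.32 and -0.26 in non-addicted vs. MA24 and -0.41, -0.32 and -0.32 in non-addicted vs. MA12 (SE 0.11 to 0.15).

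The 6 progenitor and newly formed members were split. In non-addicted vs. MA24, 3 had a log2FC above 0 and 3 below it (median -0.05), whereas all 37 tested members outside this group were below 0. Sox8, also outside this group but removed by the variance filter, was at 0.03 without that filter. Pdgfra, the growth factor receptor of progenitors, had 70.1, 73.8, 74.8 and 75.9 CPM in non-addicted rats, 78.8, 88.9, 83.6 and 68.6 CPM in MA12 rats, and 78.2, 62.2, 75.5 and 67.1 CPM in MA24 rats. The non-addicted rats were close to each other and inside the range of both other groups. The log2FC of Pdgfra was 0.05 (SE 0.10, adjusted p = 0.806) in non-addicted vs. MA24, -0.12 (SE 0.10, adjusted p = 0.648) in non-addicted vs. MA12 and -0.18 (SE 0.11, adjusted p = 0.323) in MA24 vs. MA12, all by edgeR. Bcas1, a marker of newly formed and early myelinating oligodendrocytes, went with the myelin genes. It had 303, 270, 264 and 414 CPM in non-addicted rats, 291, 251, 471 and 289 CPM in MA12 rats, and 435, 411, 466 and 363 CPM in MA24 rats. Non-addicted rat 13 and MA12 rat 4N reached into or past the MA24 range, and the other rats of those groups stayed below it. The log2FC of Bcas1 was -0.43 (SE 0.13, adjusted p = 0.125) in non-addicted vs. MA24 and 0.36 (SE 0.15, adjusted p = 0.151) in MA24 vs. MA12, both by edgeR.

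Gpr17, a receptor of committed precursors, and Enpp6, a choline phosphodiesterase of newly formed oligodendrocytes, are described for their wide spread, which was chosen after their values were seen. Gpr17 had 10.5, 20.6, 18.7 and 16.6 CPM in non-addicted rats, 23.9, 24.4, 27.3 and 17.0 CPM in MA12 rats, and 23.2, 8.92, 14.7 and 16.2 CPM in MA24 rats. MA24 rat 14N and non-addicted rat 9 were lowest, and MA24 rat 9N lay within the MA12 range. Gpr17 was the only member lower in MA24 than in MA12 at an unadjusted p below 0.05 (-0.55, SE 0.20, adjusted p = 0.112, edgeR). Without rat 9N it passed, as did 809 of 10750 genes. Enpp6 had 3.54, 3.95, 4.84 and 12.1 CPM in non-addicted rats, 8.07, 7.81, 11.3 and 7.62 CPM in MA12 rats, and 9.81, 2.46, 10.4 and 5.65 CPM in MA24 rats, so that the highest non-addicted rat had 3.41 times the lowest and the highest MA24 rat 4.24 times the lowest. Cspg4 and Vcan, proteoglycans of progenitors and their matrix, had log2FC values of -0.16 (SE 0.12) and 0.10 (SE 0.11) in non-addicted vs. MA24.

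Oligodendrocyte genes outside the members leaned in the same direction. These further lists were chosen with earlier results of these data known, so they are no independent support. Of 26 further oligodendrocyte genes in a second list, 22 were in the table. Below 0 were 19 of the 21 tested in non-addicted vs. MA24 (median -0.26), compared with 49.7% of all genes. The same held for 20 of 22 in non-addicted vs. MA12 (median -0.23), compared with 52.3% of all genes. In MA24 vs. MA12 it held for 11 of 21 (median -0.02), compared with 5561 of 10754 genes. Nfasc, at -0.11 (SE 0.12) in non-addicted vs. MA24, is counted both here and among the genes of axons and nodes of Ranvier below. In a list of 14 galactolipid pathway genes, 7 of the 10 tested were below 0 in non-addicted vs. MA24 (median -0.22). Of these 7, the members Ugt8, Fa2h and Gal3st1 are already counted above, and Cers2, Elovl1, Elovl7 and Arsa are not members. Sptlc2, Kdsr and Galc, also not members, were above 0. By edgeR, 0 genes of the list passed the test and 4 were lower at an unadjusted p below 0.05 (Ugt8, Fa2h, Cers2 and Elovl1). In a list of 10 further progenitor genes, 9 were tested, and 5 of them were above 0 in non-addicted vs. MA24 (median 0.06). In MA24 vs. MA12, 6 of 9 were below 0 (median -0.23), and Tnr, tenascin-R of the matrix, and Sox6, a factor that holds progenitors immature, were DEGs at -0.76 (SE 0.18, adjusted p = 0.0195) and -1.01 (SE 0.24, adjusted p = 0.0202, both edgeR). Of all genes, 2.45% were DEGs there. The levels of Tnr and Sox6 were 45.5 ± 5.41 and 6.58 ± 1.11 CPM in MA12 rats and 26.8 ± 8.62 and 3.26 ± 0.783 CPM in MA24 rats (SD, n = 4 each). The other 3 progenitor genes were above 0, with C1ql1 at 0.27 (SE 0.12, unadjusted p = 0.0346, edgeR).

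Markers of other cell types also moved between these groups. In non-addicted vs. MA24, all 6 tested endothelial markers were below 0 (median -0.38), and Cldn5 (-0.68, adjusted p = 0.0241) and Kdr (-0.85, adjusted p = 0.0354, both edgeR) were DEGs; the summed level of the 7 markers in the table was 329 to 460 CPM in non-addicted and 509 to 575 CPM in MA24 rats. All 7 tested mural and fibroblast markers were below 0 (median -0.37; 75.5 to 100 CPM against 99.2 to 121 CPM), with Col1a2 at 0 in every library. All 8 microglia markers were below 0 (median -0.16; 384 to 511 CPM against 479 to 582 CPM), with 0 past the test by edgeR and 2 at an unadjusted p below 0.05. Ependymal and choroid plexus markers went the other way, with 6 of 7 above 0 (median 1.08; 53.8 to 101 CPM against 45.6 to 58.0 CPM) and Foxj1, a factor of ciliated cells, a DEG (1.08, SE 0.22, adjusted p = 0.0354, edgeR). Without rat 9, the library with Ttr, the median member was at -0.33, and 6 members and 113 of 10743 genes passed the test, compared with 3 members and 59 of 10744 genes with it. Astrocyte markers had a median of 0.02 (3348 to 4154 CPM against 3699 to 4146 CPM), genes of axons and nodes of Ranvier 0.09 (3032 to 3592 CPM against 3064 to 3442 CPM) and striatal projection neuron markers -0.11 (14210 to 17144 CPM against 16861 to 18644 CPM). Of the 9 tested projection neuron markers, 7 were below 0 and 2 above it. By edgeR, 0 of them passed the test and 3 were lower at an unadjusted p below 0.05 (8.16% of all genes). Markers of cortical neurons and of thalamic and pallidal neurons, regions next to the striatum, had medians of -0.13 (3 tested) and 0.12 (6 tested). The part of these cell types in the result was not tested.

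In non-addicted vs. MA12, endothelial and mural markers were lower in non-addicted rats as well (medians -0.39 and -0.56), and ependymal markers higher (0.57), while astrocyte, microglia and axonal lists were at -0.02, -0.12 and -0.11. In MA24 vs. MA12, the medians were 0.05 for endothelial, -0.23 for mural, -0.38 for ependymal, -0.12 for astrocyte, 0.07 for microglia and -0.18 for axonal genes. Kcna2, a potassium channel beside the node of Ranvier, was a DEG there (-1.38, SE 0.26, adjusted p = 0.00845, edgeR), where 2.45% of all genes were DEGs. So was the astrocyte glutamate transporter Slc1a2 (-0.70, SE 0.18, adjusted p = 0.0328, same test). The mural marker Rgs5 (-0.72, adjusted p = 0.016) and Prkcd of the thalamic and pallidal list (-0.94, adjusted p = 0.0131, both edgeR) were DEGs as well. Of the astrocyte markers, 5 were below 0 and 4 above it. For axonal genes these counts were 8 and 4, for mural markers 5 and 2, and for thalamic and pallidal markers 4 and 0. The part of these cells in the values of the members was not tested.

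**Figure D5:**
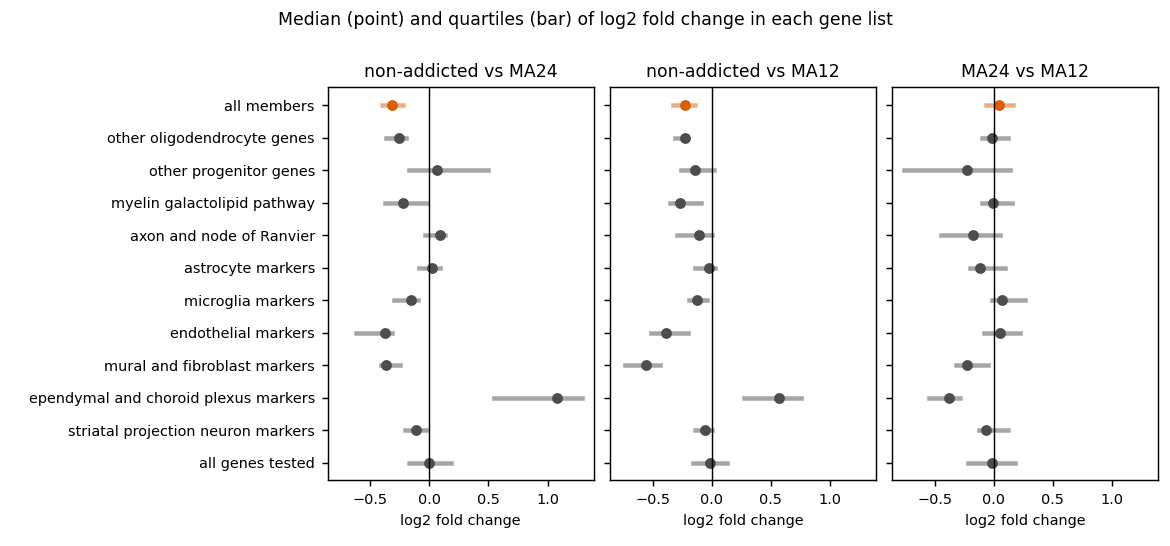
Median (points) and quartiles (bars) of the log2 fold change over the tested genes of each list in the 3 comparisons, with the 44 members in orange and all genes tested at the bottom. In non-addicted vs. MA24 the members (-0.32), the further oligodendrocyte genes (-0.26), the endothelial (-0.38) and the mural markers (-0.37) lie left of 0, and the ependymal markers (1.08) right of it.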

How the data were processed

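RNA of the striatum was sequenced in 12 rats. Per the study's methods and the submitters' processing notes, the authors used Cutadapt (1.18) for trimming, STAR (2.7.0e) for alignment to rn6 and featureCounts for counting per gene; HTSeq (0.12.4) is named without a role. The deposited values are raw counts per gene, without normalization, and all 12 columns were used. The treatment of strand and of reads with several positions is not given in the sources used here, so counts of overlapping genes and close copies are uncertain. Depth was 17908962 to 23850284 counts per library.

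For every comparison, genes were required to exceed a mean count of 4, the 15% least variable on the log2 CPM scale (prior count 2) were dropped, and edgeR 4.0.16 (R 4.3.3; TMM, glmQLFit, glmQLFTest) was fitted to all genes with only those 2 groups, with Benjamini-Hochberg adjustment. The scripts were tested on simulated counts. Exact permutation tests, motif searches and figures used Python 3.11.15, scipy 1.17.1, pandas 2.3.3, numpy 2.4.6 and matplotlib 3.10.9. Values in every rat are given for members with an adjusted p below 0.05 in any comparison and for the 2 members of each role with the highest mean count, and members whose groups did not overlap are named; Hapln2, Opalin, Gpr17 and Enpp6 were added after their values were seen. The members, roles, lists and rules were chosen with earlier results of these data known. Alternatives were DESeq2 1.42.0, edgeR's likelihood ratio test, RLE factors, 3 other filters, a joint fit of all 3 groups, fits without each single rat, and rats of only 1 kind of number or that kind as a covariate. No coordinates of rn6 are given; promoters come from RefSeq (GRCr8). Some genes of the further lists are not reported here by name.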

Additional observations from a re-analysis of the deposited data

Results flagged for a closer look

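In 7 of the 132 groups of 4 rats examined (44 members in 3 groups), a single rat lay far from the other 3, with a gap to the nearest of them, as a share of the group's range, above Dixon's critical value at 95%. Chance gives about 1 in 20, or 6.6 of 132, so the number itself is no sign of unusual rats. Opalin was 155 CPM in non-addicted rat 9 and 115 to 118 in the others (gap 0.924 of the range). Plekhb1 was 481 CPM in non-addicted rat 13 and 417 to 426 in the others (0.858). Gal3st1 was 14.9 CPM in non-addicted rat 12 and 21.4 to 22.5 in the others (0.859). In MA24 rat 9N, Qdpr was 575 CPM with 470 to 487 in the others (0.838), and Tf was 1243 CPM with 934 to 970 in the others (0.883). Enpp6 was 12.1 CPM in non-addicted rat 13 with 3.54 to 4.84 in the others (0.848), and 11.3 CPM in MA12 rat 4N with 7.62 to 8.07 in the others (0.878).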

How the results depend on the processing

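Under the alternatives run, the median log2FC over the members lay between -0.40 and -0.26 in non-addicted vs. MA24 (-0.32 as reported), between -0.32 and -0.13 in non-addicted vs. MA12 (-0.23), a move of over 1.5 times with the kind of rat number, and between -0.06 and 0.15 in MA24 vs. MA12 (0.04), where its sign turned. The counts of members past the test moved more, as did those of all genes, though not always the same way: in MA24 vs. MA12 with all 3 groups in the fit, the members went from 1 to 0 and all genes from 555 to 596. In non-addicted vs. MA24, the 3 members with an adjusted p below 0.05 became 11 with DESeq2 and 10 with edgeR's likelihood ratio test (from 59 to 253 and 271 over all genes), and 0 (also 0 DEGs; 0, 13, 0 and 4 over all genes) without the variance filter, unfiltered, with a minimum of 10 counts per library, or with all 3 groups in the fit; with a rat left out, there were 0 to 15, and 0 to 5 DEGs. In non-addicted vs. MA12, the 0 members became 4 with DESeq2 and 3 with the likelihood ratio test (from 29 to 173 and 164 over all genes), and 0 to 2 (0 to 2 DEGs) with a rat left out. In MA24 vs. MA12, the 1 member became 4 with DESeq2, 3 with the likelihood ratio test (from 555 to 979 and 899 over all genes), 0 with all 3 groups in the fit, with only the rats numbered with N and with the kind of number as a covariate, and 0 to 6 (0 to 2 DEGs) with a rat left out. The cause of these shifts was not tested.

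Single values under alternatives, 584 in all, cover only members with an adjusted p below 0.05 in any comparison or the 2 highest mean counts of their role. Of these, 509 kept their direction and their side of the threshold, 37 lost and 12 gained it, and 26 changed sign, none of them from a value past the test. Most of the 509 had not passed to begin with. The losses were those of Gsn in MA24 vs. MA12 (9 of 17 alternatives) and, in non-addicted vs. MA24, of Mbp (9 of 15), Adamts4 (9 of 15) and Klk6 (10 of 15). Most alternatives thus lost these calls. In non-addicted vs. MA12, with only the rats numbered without N, log2FC values turned to 0.22 (Mbp), 0.04 (Olig1), 0.14 (Tf), 0.22 (Bcas1) and 0.00 (Klk6), and with the kind of number as a covariate to 0.21, 0.02, 0.13 and 0.21 for the first 4 and 0.12 for Sirt2. With a rat left out, Mbp lay between -0.25 and 0.10, Tf between -0.41 and 0.02, Bcas1 between -0.21 and 0.18 and Gsn between -0.10 and 0.15. In MA24 vs. MA12, Tf turned to -0.26 with only the rats numbered with N and to -0.27 with the covariate. With a rat left out, Tf lay between -0.08 and 0.33, Adamts4 between -0.06 and 0.19 and Qdpr between -0.18 and 0.00. No paired analysis was possible because the groups share no rat numbers. Depth was not varied, and members with few counts, such as Enpp6 and Nkx2-2, carry more counting error than Mbp.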
